A study of Mus musculus with 12 samples.

Results

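The genes of the unfolded protein response and the integrated stress response were examined in mRNA sequencing of a pair of related mouse mammary tumor cell lines. The members were 37 genes taken by name, out of 52550 genes in the table, and each name matched 1 gene. They were 4 stress sensors, 13 ER chaperones and folding enzymes, 4 genes of ER-associated degradation, 6 transcription factors, 4 feedback genes and late targets of the ATF4-CHOP branch, and 6 genes of amino acid and one-carbon synthesis. All 37 passed the filter on low counts, as did 16823 genes in total. The rule used gene names and no measured value.

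The cell lines were D2A1, which proliferates in 3D culture, and D2.OR, which becomes dormant there. They came from separate D2 hyperplastic alveolar nodule tumors of mice, and each is 1 established line, so a difference between them is a difference between 2 lines. Each line was grown on plastic (2D) or in 3D on a layer of Matrigel, a gel of basement membrane proteins, with 3 replicates in each of the 4 groups (D2A1 2D, D2A1 3D, D2.OR 2D and D2.OR 3D) and 12 libraries in all. The labels name no drug and no transgene. RNA was taken after a week of culture. Wells were pooled for each sample, and the cells in 3D were first released from the Matrigel on ice. The replicate number is also the batch number, and each batch was sequenced in a lane of its own, so batch and lane cannot be told apart. The labels do not say whether the replicates were separate cultures, while the study states of its findings in general that they rest on biological repeats. The p-values measure only the spread between these samples.

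Secreted and membrane proteins fold in the endoplasmic reticulum (ER). When unfolded protein builds up there, the membrane sensors IRE1 (Ern1), ATF6 and PERK (Eif2ak3) raise the output of chaperones through XBP1 and ATF6, and PERK slows translation by phosphorylating eIF2 alpha. The kinase GCN2 (Eif2ak4) phosphorylates the same site when amino acids run short, and both routes favor translation of ATF4, which turns on genes of amino acid synthesis and, with CHOP (Ddit3), late targets such as Trib3 and Chac1. Much of the control of these proteins is at translation, splicing or cleavage, so mRNA levels show only a part of it.

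Library totals ranged from 47589611 to 73325069 expected counts, with a median of 61747126, and the mitochondrial share was 1.42% to 2.20%. Of 8 epithelial markers, 5 were above 1 TPM (the transcript level scaled for gene length and library size) in every D2.OR library, and only Krt18 was so in D2A1, where Cdh1 and Epcam were near 0. Vim, Fn1, Zeb1 and Twist1 were above 1 TPM in all 12 libraries. Summed endothelial markers stayed at or below 0.42 TPM, and among haematopoietic markers only Cd68 was above 1 TPM. Summed adipocyte markers were 9.47 to 176 TPM in D2.OR 3D and 0.24 to 5.81 TPM in D2.OR 2D, and their part in the results below was not tested. In bulk RNA, fewer cells of a type and less RNA per cell cannot be told apart.

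A difference was called where edgeR's quasi-likelihood test, fitted on all 12 libraries with a term for the batch, gave a Benjamini-Hochberg adjusted p under 0.05 over all genes tested. Log2 fold changes are differences between groups from that fit. In every sentence on D2.OR against D2A1, a positive value means higher in D2.OR, and in every sentence on culture it means higher in 3D. Levels are in TPM and are given for replicates 1, 2 and 3 in that order.

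The 3 D2A1 2D libraries did not carry the same pattern of these genes, and this bears on each comparison that uses them. Replicate 1 had the highest level of 12 of the 13 ER chaperones and folding enzymes, with a median of 0.95 log2 CPM (log2 counts scaled to library size) above the mean of the other 2 libraries. Replicate 2 had the highest level of all 4 feedback genes and late targets, with a median of 1.37 above the mean of the other 2. Of the 37 members, 10 (27.0%) lay more than 1 log2 unit from the mean of the other 2 libraries in replicate 1, 10 in replicate 2 and 0 in replicate 3, against 14.1%, 8.63% and 6.85% of all genes tested. In the other 3 groups, 0 or 1 member lay so far away in any library. Across all genes, replicate 1 stood apart in each group, at 11.8% to 14.1% of genes against 5.50% to 8.63% in replicates 2 and 3.

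**Figure D1:**
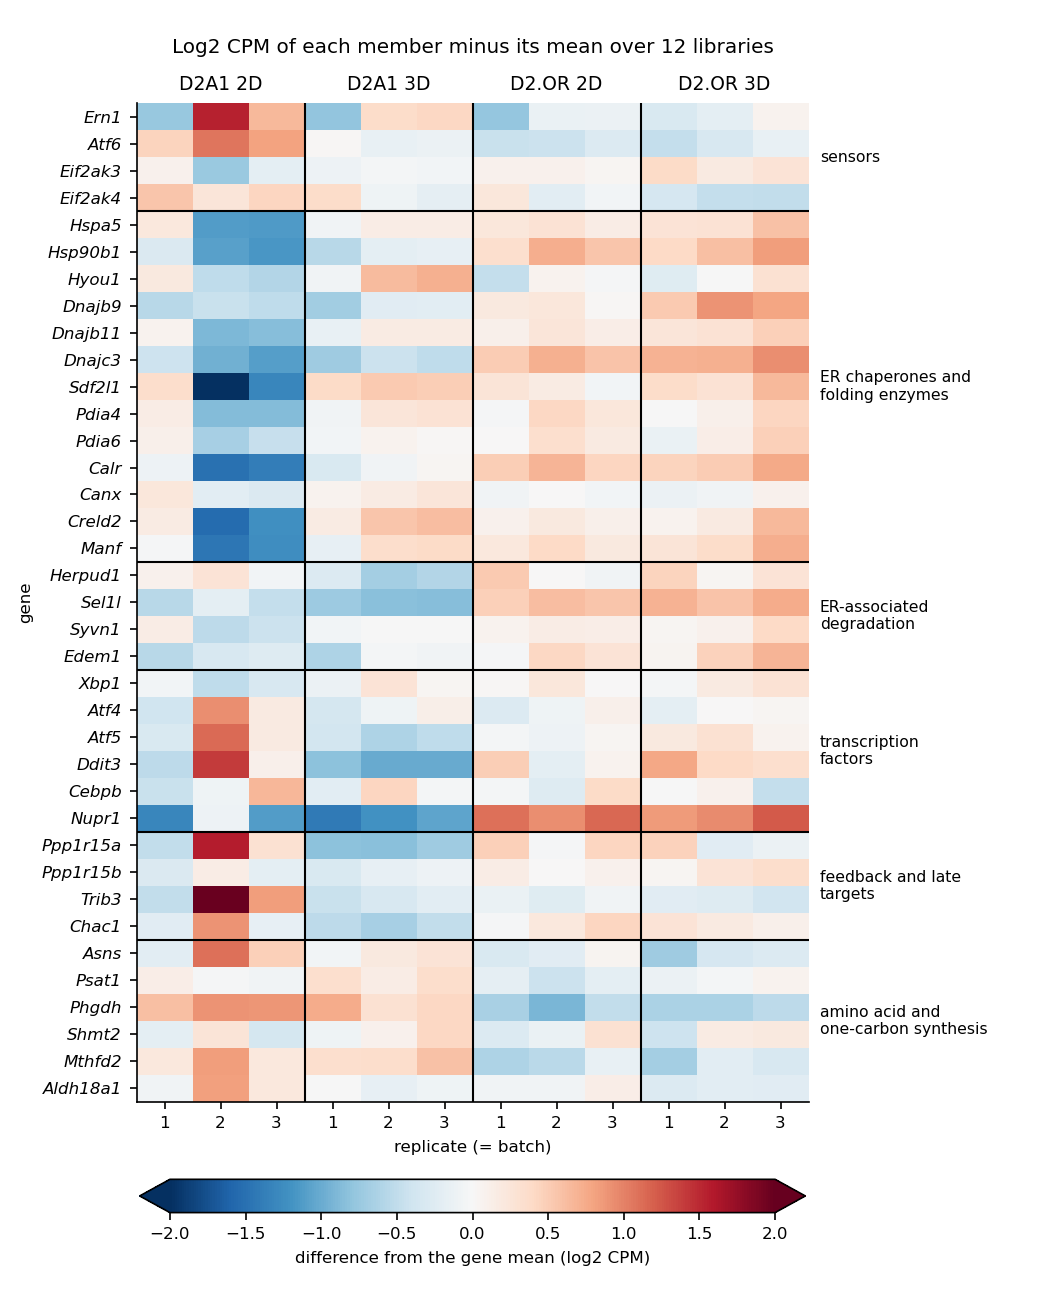
Log2 CPM of each of the 37 members in each library minus the mean of that gene over 12 libraries, with genes in rows by role and libraries in columns by group and replicate. In D2A1 2D the median of the 13 chaperones was 0.10 in replicate 1, -0.96 in replicate 2 and -1.11 in replicate 3, with Dnajb9, Dnajc3, Hsp90b1, Calr and Manf below their means in all 3 libraries (-0.55 to -0.02 in replicate 1), and Trib3, Ddit3 and Ppp1r15a were highest in replicate 2.

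Known elements of both branches were looked for in RefSeq promoter windows, 250 bases before to 50 after each gene's start (GRCm38.p6). Of the 37 members, 33 had a window, and Atf6, Hyou1, Manf and Ppp1r15b had none. The ER stress response element (ERSE), CCAAT and CCACG separated by 9 bases of any kind, is bound by ATF6 together with NF-Y. On either strand it was present in 8 members (24.2% of the 33), and in 37 of all 27025 genes with a window (0.137%). These members were Hspa5, Calr, Canx, Creld2, Dnajc3, Hsp90b1, Pdia6 and Syvn1, of which 7 are chaperones or folding enzymes. ERSE-II, ATTGG and CCACG separated by 1 base, was in Dnajb11 and Herpud1 (6.06% of the 33) and in 0.0444% of all genes with a window. The C/EBP-ATF response element (CARE), TGATGNAA, was in 5 members, Asns, Chac1, Herpud1, Nupr1 and Trib3 (15.2% of the 33), and in 4.51% of all genes with a window. The element TGACGTGG was in none of the members and in 0.714% of all genes with a window. A match describes the letters in a window and is not evidence of binding.

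The ERSE stretches of 5 chaperone genes are printed because the values of these genes are given below in every library and stand behind the chaperone results. They are written as transcribed, 5′ to 3′, with CCAAT and CCACG of the element in capitals, and an element on the opposite strand reads CGTGG before ATTGG. Hspa5 is at chr2:34772005-34772063 on the plus strand, Calr at chr8:84847055-84847113 on the minus strand, Creld2 at chr15:88819500-88819558 on the plus strand, Dnajc3 at chr14:118937807-118937865 on the plus strand and Hsp90b1, which holds 2 elements, at chr10:86705513-86705676 on the minus strand.
Hspa5: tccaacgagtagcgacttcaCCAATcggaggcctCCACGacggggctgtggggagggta
Calr: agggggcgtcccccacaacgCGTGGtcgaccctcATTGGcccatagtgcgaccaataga
Creld2: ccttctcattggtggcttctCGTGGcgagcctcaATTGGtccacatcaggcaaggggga
Dnajc3: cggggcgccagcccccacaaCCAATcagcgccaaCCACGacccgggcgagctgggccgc
Hsp90b1: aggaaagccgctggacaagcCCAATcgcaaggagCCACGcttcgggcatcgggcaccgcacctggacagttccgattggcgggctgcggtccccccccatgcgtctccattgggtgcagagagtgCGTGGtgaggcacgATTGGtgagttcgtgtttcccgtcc

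The CARE sites of the 5 members that hold one, and the ERSE-II of Herpud1, are printed with the element in capitals because Herpud1 was the only member to hold an element of each branch. An element on the opposite strand is written as its reverse complement. The CARE of Asns is at chr6:7693215-7693242 (minus strand), of Chac1 at chr2:119351039-119351066 (plus strand), of Nupr1 at chr7:126625563-126625590 (minus strand), of Trib3 at chr2:152344029-152344056 (minus strand), where it lies after the start, and of Herpud1 at chr8:94386307-94386334 (plus strand). The ERSE-II of Herpud1 is at chr8:94386368-94386396 (plus strand).
Asns: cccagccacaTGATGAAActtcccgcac
Chac1: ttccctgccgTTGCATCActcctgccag
Nupr1: aagggccagaTTGCATCAgacagggctt
Trib3: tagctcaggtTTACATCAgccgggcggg
Herpud1: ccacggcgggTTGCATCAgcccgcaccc
Herpud1 ERSE-II: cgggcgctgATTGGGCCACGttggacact

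Levels differed widely between the roles. Averaged over 12 libraries, the lectin chaperone Calr was the most abundant member at 2400.2 TPM, followed by Hspa5 at 1714 and Hsp90b1 at 942 TPM. The least abundant were the sensor kinases Ern1, Eif2ak3 and Eif2ak4, at 12.2, 12.6 and 12.9 TPM.

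D2.OR was compared with D2A1 within each culture to find which of these genes differed between the lines. In 2D, 16 of the 37 members (43.2%) were called, 9 higher and 7 lower in D2.OR, where 49.8% of all genes tested were called. In 3D, 15 members (40.5%) were called, 10 higher and 5 lower, where 53.8% of all genes were called. Neither share was above that of all genes, so the count by itself is no result about the members. The roles differed in direction: in 2D the called chaperones and degradation genes were all higher in D2.OR (6 of 13 and 2 of 4), and the called sensors and synthesis genes were all lower (3 of 4 and 4 of 6). In 3D the called members by role were 3 of 13 chaperones and 3 of 4 degradation genes higher, 1 sensor lower, 2 of 6 transcription factors and 2 of 4 feedback genes higher, and 4 of 6 synthesis genes lower. The median log2 fold change was 0.81 over the chaperones and -0.49 over the synthesis genes in 2D, and 0.25 and -0.45 in 3D, beside medians of -0.0034 and 0.0005 over all genes. Under scaling by the library total alone, which moved the median of all genes by -0.16 in 2D and -0.10 in 3D, 7 were called higher and 9 lower in 2D and 8 and 5 in 3D. That shift was over all genes, so the changed balance of calls is no result about the members.

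**Figure D2:**
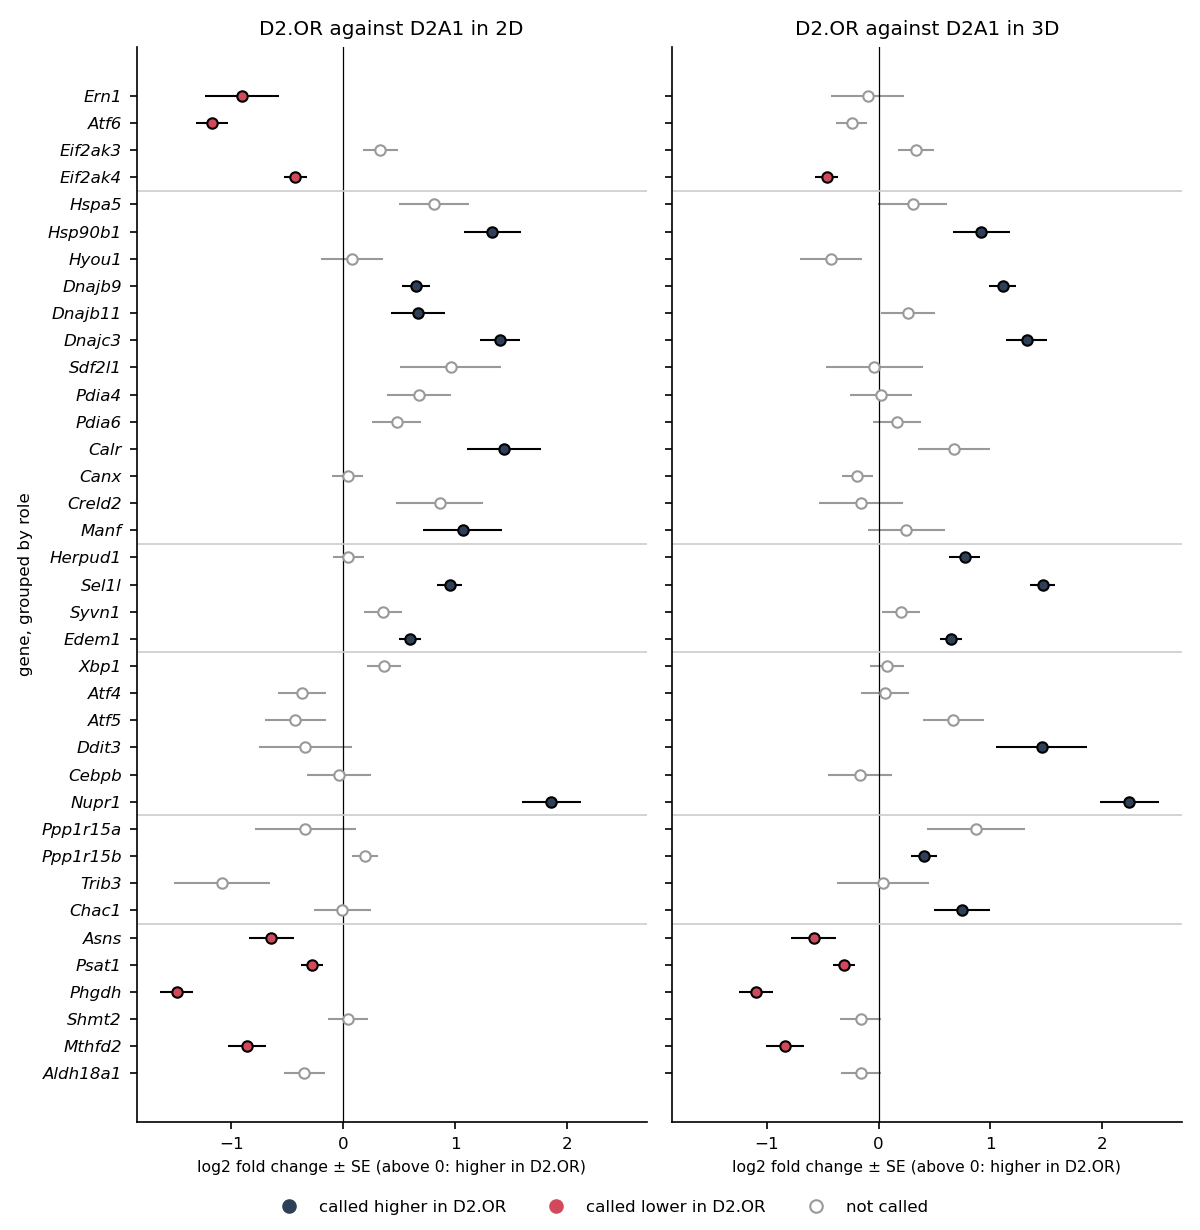
Log2 fold change of D2.OR against D2A1 with its standard error for each of the 37 members, in 2D on the left and in 3D on the right, in the fit of all 12 libraries. Filled points were called (16 in 2D and 15 in 3D), and open points were not.

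Among the sensors, Atf6, the membrane factor that is cut in the Golgi to free a transcription factor, differed most between the lines in 2D. Its levels were 37.4, 58.4 and 48.4 TPM in D2A1 2D, 27.6, 22.6 and 23.1 in D2A1 3D, 18.3, 18.7 and 20.9 in D2.OR 2D and 19.7, 20.6 and 22.9 in D2.OR 3D. D2A1 2D lay above the other 3 groups without overlap, and all 6 D2.OR values lay between 18.3 and 22.9. Atf6 was lower in D2.OR than in D2A1 in 2D (log2 fold change -1.17 ± 0.14 (SE), edgeR, adjusted p = 0.000192), a call that was kept in all 24 alternatives, and it was not called in 3D (log2 fold change -0.24 ± 0.14 (SE), edgeR, adjusted p = 0.178). Within D2A1 it fell from 2D to 3D (log2 fold change -0.86 ± 0.14 (SE), edgeR, adjusted p = 0.0319), with differences of -0.42, -1.22 and -0.93 log2 CPM in batches 1, 2 and 3. The call in D2A1 was lost in 11 of the 24 alternatives, among them each one that left out batch 2, batch 3 or a library of either.

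Ern1 encodes IRE1, the kinase and nuclease that splices Xbp1 mRNA. Its levels were 6.50, 32.6 and 18.1 TPM in D2A1 2D, 6.39, 13.3 and 14.0 in D2A1 3D, 5.85, 10.1 and 9.82 in D2.OR 2D and 9.0, 9.10 and 11.1 in D2.OR 3D. Replicate 1 was the lowest of its group in all 4 groups, and D2A1 2D ranged widely between replicates, so that D2.OR 2D overlapped it. The 2D difference was called (log2 fold change -0.90 ± 0.33 (SE), edgeR, adjusted p = 0.0472) and was lost in 16 of 24 alternatives, among them without replicate 2 or 3 of D2A1 2D and without any 1 library of D2.OR 2D or D2A1 3D. Ern1 was not called in 3D (log2 fold change -0.10 ± 0.33 (SE), edgeR, adjusted p = 0.819).

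Eif2ak3 encodes PERK, and its levels were 13.9, 7.72 and 11.3 TPM in D2A1 2D, 12.1, 11.6 and 11.7 in D2A1 3D, 12.4, 12.5 and 12.3 in D2.OR 2D and 17.3, 13.5 and 14.4 in D2.OR 3D. The lowest value was in D2A1 2D replicate 2 and the highest in D2.OR 3D replicate 1, and no contrast called it. Eif2ak4 encodes GCN2, the sensor of uncharged tRNA, and its levels were 19.4, 15.7 and 17.8 TPM in D2A1 2D, 17.3, 11 and 10.3 in D2A1 3D, 13.8, 10.5 and 11.7 in D2.OR 2D and 10.4, 8.79 and 8.35 in D2.OR 3D. D2.OR lay below D2A1 without overlap in 2D, and in 3D the highest D2.OR value only just passed the lowest D2A1 value. The lower level was called in 2D (log2 fold change -0.43 ± 0.10 (SE), edgeR, adjusted p = 0.00846) and in 3D (log2 fold change -0.46 ± 0.11 (SE), edgeR, adjusted p = 0.00503). In both lines its level was lower in 3D than in 2D in every batch, and neither fall was called (edgeR, adjusted p = 0.0915 in D2.OR and 0.0628 in D2A1).

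The 13 ER chaperones and folding enzymes all had a positive log2 fold change for D2.OR in 2D, from 0.04 (Canx) to 1.44 (Calr), and 6 were called: Dnajc3, Dnajb9, Hsp90b1, Calr, Manf and Dnajb11. Hspa5, Sdf2l1, Pdia4, Pdia6, Creld2, Hyou1 and Canx were not called by edgeR, while DESeq2 called Hspa5, Sdf2l1, Pdia4 and Creld2 higher. In 3D, 9 of the 13 were positive, and Dnajb9, Dnajc3 and Hsp90b1 were called. Within batches 1, 2 and 3, the chaperone medians of D2.OR minus D2A1 were 0.01, 1.40 and 1.25 log2 CPM in 2D and 0.34, 0.07 and 0.35 in 3D. In batch 1, 7 of the 13 were positive in 2D, and in batches 2 and 3 all 13 were. The 6 called genes were positive in every batch, though smaller in batch 1 for all but Dnajb9, at 0.93 for Dnajc3, 0.74 for Dnajb9, 0.61 for Hsp90b1, 0.59 for Calr, 0.23 for Manf and 0.03 for Dnajb11. Of the 2D calls, Dnajb11 was lost in 14 of 24 alternatives and Manf in 8, among them without replicate 2 or 3 of D2A1 2D, and Calr was lost in 2, without batch 2 and without batch 3.

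Dnajc3 (p58IPK), a co-chaperone of BiP, was at 44.9, 31.1 and 27.9 TPM in D2A1 2D, 36.2, 40.6 and 38.3 in D2A1 3D, 77.8, 90.1 and 82.1 in D2.OR 2D and 96.4, 91.5 and 105 in D2.OR 3D. Every D2.OR library was above every D2A1 library, and the higher level was called in 2D (log2 fold change 1.40 ± 0.18 (SE), edgeR, adjusted p = 0.000268) and in 3D (log2 fold change 1.32 ± 0.18 (SE), edgeR, adjusted p = 0.000322). Dnajb9 (ERdj4), another co-chaperone of BiP, was at 26.3, 28.7 and 27.3 TPM in D2A1 2D, 23.3, 30.1 and 30.5 in D2A1 3D, 40.1, 41.3 and 36.2 in D2.OR 2D and 55.4, 67.3 and 62.0 in D2.OR 3D. All D2.OR values were above all D2A1 values, and within D2.OR every 3D value was above every 2D value. The line difference was called in 2D (log2 fold change 0.65 ± 0.12 (SE), edgeR, adjusted p = 0.00206) and in 3D (log2 fold change 1.11 ± 0.12 (SE), edgeR, adjusted p = 9.82e-05). Dnajb9 also came closest of the members to a culture call in D2.OR (log2 fold change 0.59 ± 0.12 (SE), edgeR, adjusted p = 0.0505), at 0.34, 0.68 and 0.77 log2 CPM in batches 1, 2 and 3. Hsp90b1 (GRP94), the ER paralog of HSP90, was at 748, 427 and 410.5 TPM in D2A1 2D, 609, 717 and 747 in D2A1 3D, 1040.0, 1374 and 1243 in D2.OR 2D and 1201, 1289 and 1503 in D2.OR 3D. D2.OR was above D2A1 without overlap in both cultures, called in 2D (log2 fold change 1.33 ± 0.26 (SE), edgeR, adjusted p = 0.00248) and in 3D (log2 fold change 0.92 ± 0.25 (SE), edgeR, adjusted p = 0.0133). The call in 3D was lost in 4 of 24 alternatives, without replicate 1 of D2A1 3D, without replicate 3 of D2.OR 3D, without batch 2 and without batch 3.

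The chaperones that spread most between the D2A1 2D libraries were given in full after their values had been seen. Hspa5 (BiP), the central Hsp70 of the ER and the partner that holds the sensors inactive, was at 1947, 798 and 806 TPM in D2A1 2D, 1597, 1746 and 1771 in D2A1 3D, 1808, 1875 and 1783 in D2.OR 2D and 2066, 2005 and 2363 in D2.OR 3D. Calr, a lectin chaperone that binds glycoproteins and calcium, was at 2129, 828 and 889 TPM in D2A1 2D, 1829, 1988 and 2137 in D2A1 3D, 2887, 3484 and 2889.7 in D2.OR 2D and 3059, 3041 and 3641 in D2.OR 3D. In both, D2A1 2D replicates 2 and 3 were below all other libraries, and replicate 1 was near or above the D2A1 3D libraries. Sdf2l1, a component of a BiP complex, was at 149, 27.8 and 47.9 TPM in D2A1 2D, 149.6, 153 and 152 in D2A1 3D, 128, 120.5 and 105 in D2.OR 2D and 150.1, 135 and 172 in D2.OR 3D. Creld2, a secreted product of stressed ER, was at 137, 43.0 and 53.2 TPM in D2A1 2D, 136, 165 and 174 in D2A1 3D, 119, 129 and 123 in D2.OR 2D and 129, 131 and 180.4 in D2.OR 3D. Manf, another ER stress-induced secreted protein, was at 540.0, 212 and 239.9 TPM in D2A1 2D, 481, 650.2 and 665 in D2A1 3D, 569.9, 639 and 566 in D2.OR 2D and 637, 663 and 845 in D2.OR 3D. In these as well, replicates 2 and 3 of D2A1 2D were the lowest of the 12 libraries. Among them, Calr (log2 fold change 1.44 ± 0.33 (SE), edgeR, adjusted p = 0.00609) and Manf (log2 fold change 1.07 ± 0.35 (SE), edgeR, adjusted p = 0.0312) were called in the 2D line comparison, and Hspa5 was not (log2 fold change 0.81 ± 0.31 (SE), edgeR, adjusted p = 0.0571).

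D2A1 2D replicate 1 had the highest level in its group of 12 of the 13 chaperones and folding enzymes, and it was singled out after these values had been seen. Larger chaperone differences without it therefore followed from the choice and are no further support. Without D2A1 2D replicate 1, all 13 chaperones and folding enzymes were called higher in D2.OR in 2D, in place of 6. Their median log2 fold change was then 1.39. Calr reached 2.04, Sdf2l1 1.82, Hsp90b1 1.78, Manf 1.72 and Hspa5 1.39 on the log2 scale. Over all members 29 were then called in 2D (19 higher and 10 lower, 78.4%), where 51.2% of all genes were called. In 3D the count was 22 (16 higher and 6 lower), where 59.5% of all genes were called.

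**Figure D3:**
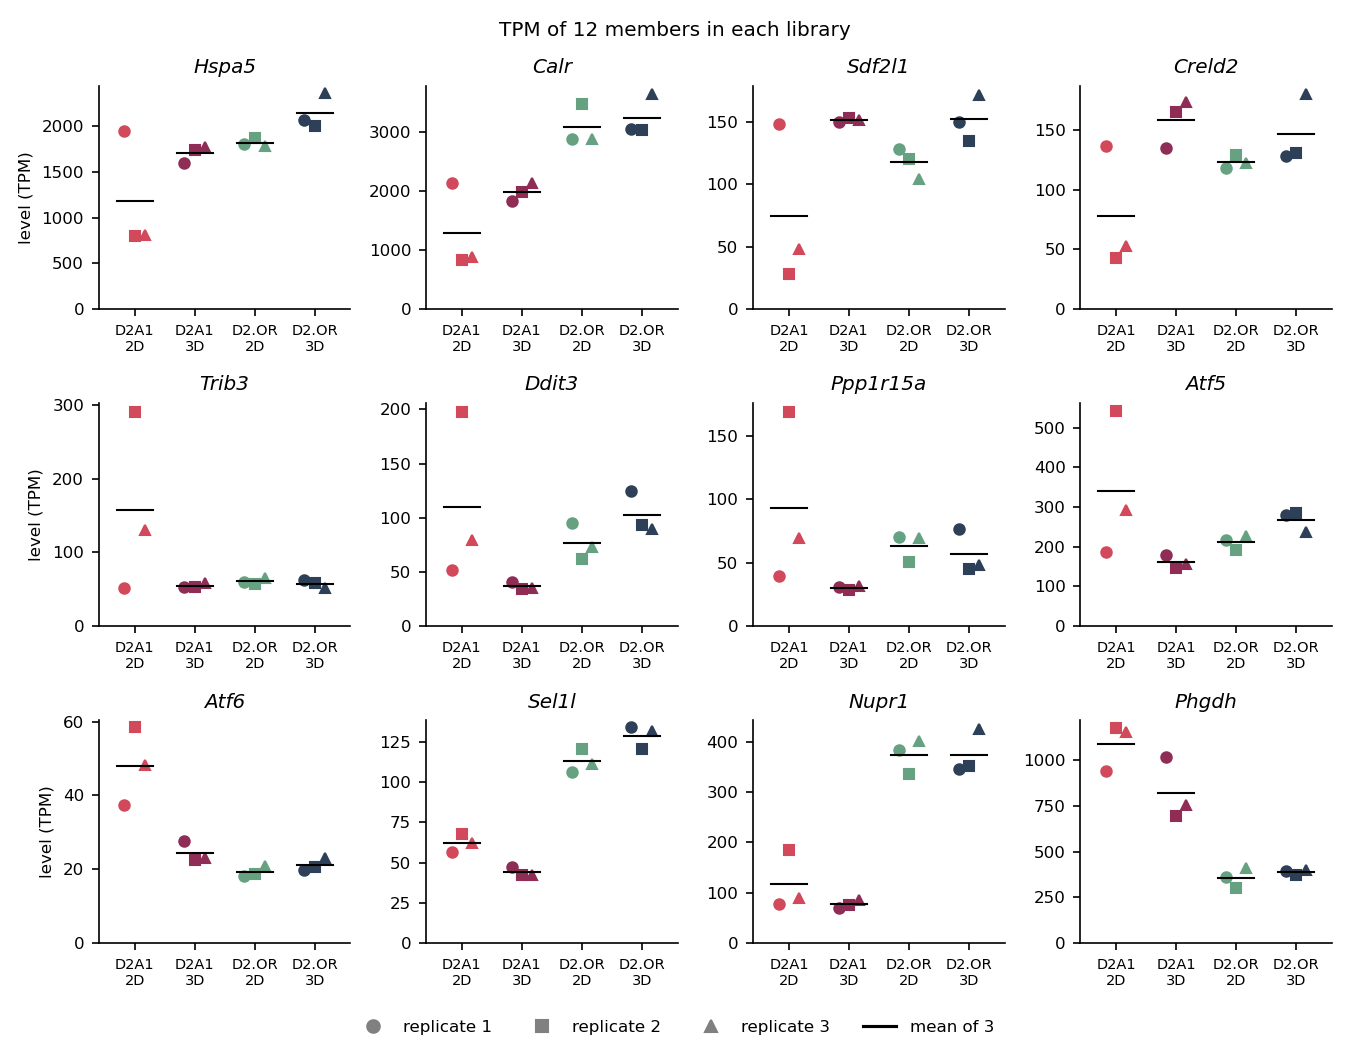
TPM of 12 members in each library by group, with a symbol for each replicate and a line at the mean of 3; axes start at 0. In D2A1 2D, replicate 1 was highest for Hspa5, Calr, Sdf2l1 and Creld2, and replicate 2 for Trib3, Ddit3, Ppp1r15a and Atf5; Sel1l, Nupr1 and Phgdh separated the lines in both cultures.

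ER-associated degradation returns misfolded proteins to the cytosol for the proteasome. Sel1l, the adaptor of the ubiquitin ligase HRD1, was at 56.9, 67.6 and 62.3 TPM in D2A1 2D, 47.3, 42.2 and 42.2 in D2A1 3D, 106, 121 and 112 in D2.OR 2D and 134, 121 and 132 in D2.OR 3D. D2.OR lay above D2A1 without overlap, and the difference was called in 2D (log2 fold change 0.95 ± 0.11 (SE), edgeR, adjusted p = 0.00014) and in 3D (log2 fold change 1.47 ± 0.11 (SE), edgeR, adjusted p = 1.13e-05), the smallest adjusted p of any member in 3D. Edem1, which takes mannose-trimmed glycoproteins to degradation, was at 42.3, 43.6 and 48.9 TPM in D2A1 2D, 44.3, 56.3 and 56.6 in D2A1 3D, 56.5, 76.7 and 68.0 in D2.OR 2D and 60.9, 76.2 and 95.1 in D2.OR 3D. It too was higher in D2.OR in 2D (log2 fold change 0.60 ± 0.10 (SE), edgeR, adjusted p = 0.00108) and in 3D (log2 fold change 0.64 ± 0.10 (SE), edgeR, adjusted p = 0.000617), and was the 1 member that differed between batches in the same fit (edgeR, adjusted p = 0.0254 for batch 2 and 0.0195 for batch 3, each against batch 1). Of all genes tested, 6.78% were called for batch 2 and 8.08% for batch 3, each against batch 1. Syvn1, which encodes HRD1 itself, was not called in either culture, with log2 fold changes of 0.36 in 2D and 0.20 in 3D.

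Herpud1, an ER membrane protein that joins the HRD1 complex, was at 208, 241 and 190.3 TPM in D2A1 2D, 161, 109 and 115 in D2A1 3D, 254, 183 and 173 in D2.OR 2D and 268, 188 and 223 in D2.OR 3D. The lines overlapped in 2D and did not overlap in 3D, where D2A1 was lower than in any other group. Herpud1 was called between the lines in 3D (log2 fold change 0.77 ± 0.14 (SE), edgeR, adjusted p = 0.00167) and not in 2D (log2 fold change 0.05 ± 0.14 (SE), edgeR, adjusted p = 0.806). It was the other member to fall in D2A1 from 2D to 3D (log2 fold change -0.62 ± 0.14 (SE), edgeR, adjusted p = 0.0489), at -0.35, -0.94 and -0.54 log2 CPM in batches 1, 2 and 3, and this call was lost in 15 of 24 alternatives, among them without any 1 D2.OR library and without replicate 2 or 3 of either D2A1 group.

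Among the 6 transcription factors, Nupr1, a small stress-induced chromatin protein, showed the largest difference of all members. Its levels were 76.8, 184 and 88.6 TPM in D2A1 2D, 69.7, 76.4 and 85.6 in D2A1 3D, 383, 337 and 401 in D2.OR 2D and 345, 353 and 426 in D2.OR 3D. Every D2.OR library was above every D2A1 library, and D2A1 2D replicate 2 was the highest in D2A1. The level was 3.63-fold higher in D2.OR in 2D (log2 fold change 1.86 ± 0.26 (SE), edgeR, adjusted p = 0.00044) and 4.72-fold higher in 3D (log2 fold change 2.24 ± 0.26 (SE), edgeR, adjusted p = 0.000143), and both calls were kept in all 24 alternatives.

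Ddit3 (CHOP), the factor that links prolonged stress to cell death, was at 51.4, 198 and 79.9 TPM in D2A1 2D, 40.2, 34.2 and 35.5 in D2A1 3D, 94.7, 62.1 and 72.7 in D2.OR 2D and 125, 93.8 and 89.6 in D2.OR 3D. In 3D the lines were apart without overlap, with all D2.OR values above all D2A1 values, while in 2D the D2A1 libraries ranged from below to above all of D2.OR. Ddit3 was called in 3D (log2 fold change 1.46 ± 0.41 (SE), edgeR, adjusted p = 0.0143) and not in 2D (log2 fold change -0.34 ± 0.41 (SE), edgeR, adjusted p = 0.526). The 3D call was lost in 3 of 24 alternatives, without replicate 2 of D2A1 3D, without replicate 1 of D2.OR 3D and without batch 3. Atf5, an ATF4 target that is itself a factor under eIF2 alpha control, was at 186, 542 and 293 TPM in D2A1 2D, 179, 146 and 156 in D2A1 3D, 218, 192 and 227 in D2.OR 2D and 280.2, 285 and 237 in D2.OR 3D. In 3D its D2.OR values were all above the D2A1 values, and the difference was not called (log2 fold change 0.67 ± 0.27 (SE), edgeR, adjusted p = 0.0646).

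Atf4, the central factor of the integrated stress response, was at 245, 624 and 371 TPM in D2A1 2D, 248, 276 and 319.8 in D2A1 3D, 243, 278 and 320.3 in D2.OR 2D and 280.0, 304 and 309.5 in D2.OR 3D. D2A1 2D replicate 2 was the highest library and the other 11 lay between 243 and 371 TPM, and no contrast called it. Xbp1, whose spliced form drives chaperone and degradation genes, was at 106, 78.1 and 90.5 TPM in D2A1 2D, 97.9, 120.1 and 106 in D2A1 3D, 99.8, 116 and 102 in D2.OR 2D and 104, 115 and 126 in D2.OR 3D. All 12 values lay between 78.1 and 126 TPM, and it was not called in any contrast. Gene-level values do not separate the spliced from the unspliced form. Cebpb, a partner of CHOP and ATF4, was not called in any contrast, and its D2.OR against D2A1 difference was -0.04 in 2D and -0.17 in 3D on the log2 scale.

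The feedback genes and late targets were scattered most in D2A1 2D. Trib3, a pseudokinase that restrains ATF4 and CHOP output, was at 52.1, 291 and 131 TPM in D2A1 2D, 52.4, 53.6 and 58.8 in D2A1 3D, 60.2, 56.4 and 65.6 in D2.OR 2D and 62.1, 58.3 and 51.8 in D2.OR 3D. Ppp1r15a (GADD34), which brings the phosphatase back to eIF2 alpha, was at 39.7, 169 and 69.6 TPM in D2A1 2D, 30.9, 28.4 and 31.4 in D2A1 3D, 70.3, 50.2 and 69.5 in D2.OR 2D and 76.7, 45.3 and 48.3 in D2.OR 3D. For both, D2A1 2D replicate 2 was the highest of the 12 libraries, and replicate 1 of the same group was near or below the D2.OR level. Neither gene was called in any contrast of the full fit, with log2 fold change -1.09 ± 0.43 (SE), edgeR, adjusted p = 0.0611 for Trib3 and log2 fold change -0.34 ± 0.45 (SE), edgeR, adjusted p = 0.56 for Ppp1r15a in 2D.

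Chac1, an enzyme that breaks down glutathione, was at 45.1, 99.4 and 47.7 TPM in D2A1 2D, 36.0, 30.3 and 34.2 in D2A1 3D, 47.4, 55.9 and 66.3 in D2.OR 2D and 63.7, 55.9 and 52.8 in D2.OR 3D. In 3D its D2.OR values were all above its D2A1 values and the difference was called (log2 fold change 0.74 ± 0.25 (SE), edgeR, adjusted p = 0.0325), though 7 of 24 alternatives lost it, among them without replicate 2 or 3 of D2A1 3D and without replicate 1 or 3 of D2.OR 3D. Ppp1r15b (CReP), the constitutive partner of the same phosphatase, was at 53.3, 73.3 and 56.8 TPM in D2A1 2D, 52.4, 53.3 and 55.5 in D2A1 3D, 66.8, 61.2 and 64.3 in D2.OR 2D and 68.2, 74.7 and 77.7 in D2.OR 3D. It was slightly higher in D2.OR in 3D without overlap (log2 fold change 0.41 ± 0.12 (SE), edgeR, adjusted p = 0.0165) and was not called in 2D (log2 fold change 0.20 ± 0.12 (SE), edgeR, adjusted p = 0.196). That call was lost in 5 of 24 alternatives, without replicate 2 of D2A1 3D, without replicate 3 of D2.OR 3D, without batch 2, without batch 3 and with library totals alone.

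Of the 6 synthesis genes, 4 were lower in D2.OR in each culture and 2, Shmt2 and Aldh18a1, were called in neither. Phgdh, the first enzyme of serine synthesis, was at 940.2, 1177 and 1156 TPM in D2A1 2D, 1017, 693 and 754 in D2A1 3D, 359, 302 and 408 in D2.OR 2D and 395, 374 and 401 in D2.OR 3D. All D2A1 values were far above all D2.OR values, 2.80-fold in 2D (log2 fold change -1.49 ± 0.15 (SE), edgeR, adjusted p = 6.52e-05) and 2.14-fold in 3D (log2 fold change -1.10 ± 0.15 (SE), edgeR, adjusted p = 0.000319). Mthfd2, a mitochondrial folate enzyme, was at 115, 179.5 and 116 TPM in D2A1 2D, 125, 117 and 138 in D2A1 3D, 60.1, 63.7 and 86.0 in D2.OR 2D and 64.2, 82.2 and 74.9 in D2.OR 3D. It was lower in D2.OR without overlap in 2D (log2 fold change -0.86 ± 0.17 (SE), edgeR, adjusted p = 0.00297) and in 3D (log2 fold change -0.83 ± 0.17 (SE), edgeR, adjusted p = 0.00302). The Phgdh and Mthfd2 calls were kept in all 24 alternatives in both cultures.

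Asns, which makes asparagine, was at 142, 358 and 237 TPM in D2A1 2D, 157, 172 and 183 in D2A1 3D, 124, 129 and 159.8 in D2.OR 2D and 101, 122 and 130.2 in D2.OR 3D. Its lower level in D2.OR was called in 2D (log2 fold change -0.64 ± 0.20 (SE), edgeR, adjusted p = 0.0268) and in 3D (log2 fold change -0.58 ± 0.20 (SE), edgeR, adjusted p = 0.036), with D2.OR 2D overlapping D2A1 2D replicate 1. Psat1, the next enzyme of serine synthesis, was at 328, 299 and 302 TPM in D2A1 2D, 386, 306 and 371 in D2A1 3D, 246, 208 and 248 in D2.OR 2D and 284, 277 and 299 in D2.OR 3D. It was lower in D2.OR without overlap, by a smaller amount, in 2D (log2 fold change -0.28 ± 0.10 (SE), edgeR, adjusted p = 0.0399) and in 3D (log2 fold change -0.31 ± 0.10 (SE), edgeR, adjusted p = 0.024). Asns lost its call in 7 alternatives in 2D and 11 in 3D, and Psat1 in 16 and 7, out of 24. In 3D both calls were lost without any 1 library of D2A1 3D. In 2D the Asns call was lost without D2A1 2D replicate 2 and without replicate 2 or 3 of D2.OR 2D, and the Psat1 call without any 1 library of D2.OR 2D. The synthesis medians of D2.OR minus D2A1 within batches 1, 2 and 3 were -0.20, -1.11 and -0.24 log2 CPM in 2D and -0.56, -0.36 and -0.42 in 3D. Shmt2, a serine hydroxymethyltransferase of mitochondria, and Aldh18a1, the entry enzyme of proline synthesis, were called in no contrast.

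The cultures were then compared within each line. In D2.OR, 0 of the 37 members were called by edgeR, where 1.62% of all genes were called. Without adjustment, 3 had a p under 0.05 (Dnajb9 and Psat1 higher and Eif2ak4 lower in 3D), below the 17.6% of all genes. DESeq2 called Dnajb9 and Eif2ak4, with 7.29% of all genes, and limma called Dnajb9, with 1.69% of all genes at a pseudocount of 1 and 1.29% at 0.1. The median log2 fold change of the members was 0.08, and their within-batch medians were 0.02, -0.00 and 0.23.

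In D2A1, 2 of 37 members were called (5.41%), Atf6 and Herpud1, both lower in 3D, where 3.48% of all genes were called. Without adjustment 18 members had a p under 0.05, beside 31.4% of all genes, and DESeq2 called 13, 4 higher and 9 lower, beside 21.3% of all genes. All 13 chaperones and folding enzymes had a positive fold change, with a median of 0.62, and all 4 feedback genes and late targets a negative one, with a median of -1.03, but edgeR called none of these 17. Of them, DESeq2 called Creld2, Manf and Sdf2l1 higher and Chac1, Ppp1r15a and Trib3 lower. Within batches, the chaperone medians were -0.20, 1.11 and 1.16 log2 CPM in batches 1, 2 and 3. The medians of the 4 feedback genes and late targets were -0.16, -1.92 and -0.68. In batch 1, 2 of the 13 chaperones were positive, and in batches 2 and 3 all 13 were. In D2.OR the same medians were 0.05, -0.03 and 0.34 for the chaperones, all 13 of which were positive in batch 3, and -0.05, -0.02 and -0.33 for the feedback genes.

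**Figure D4:**
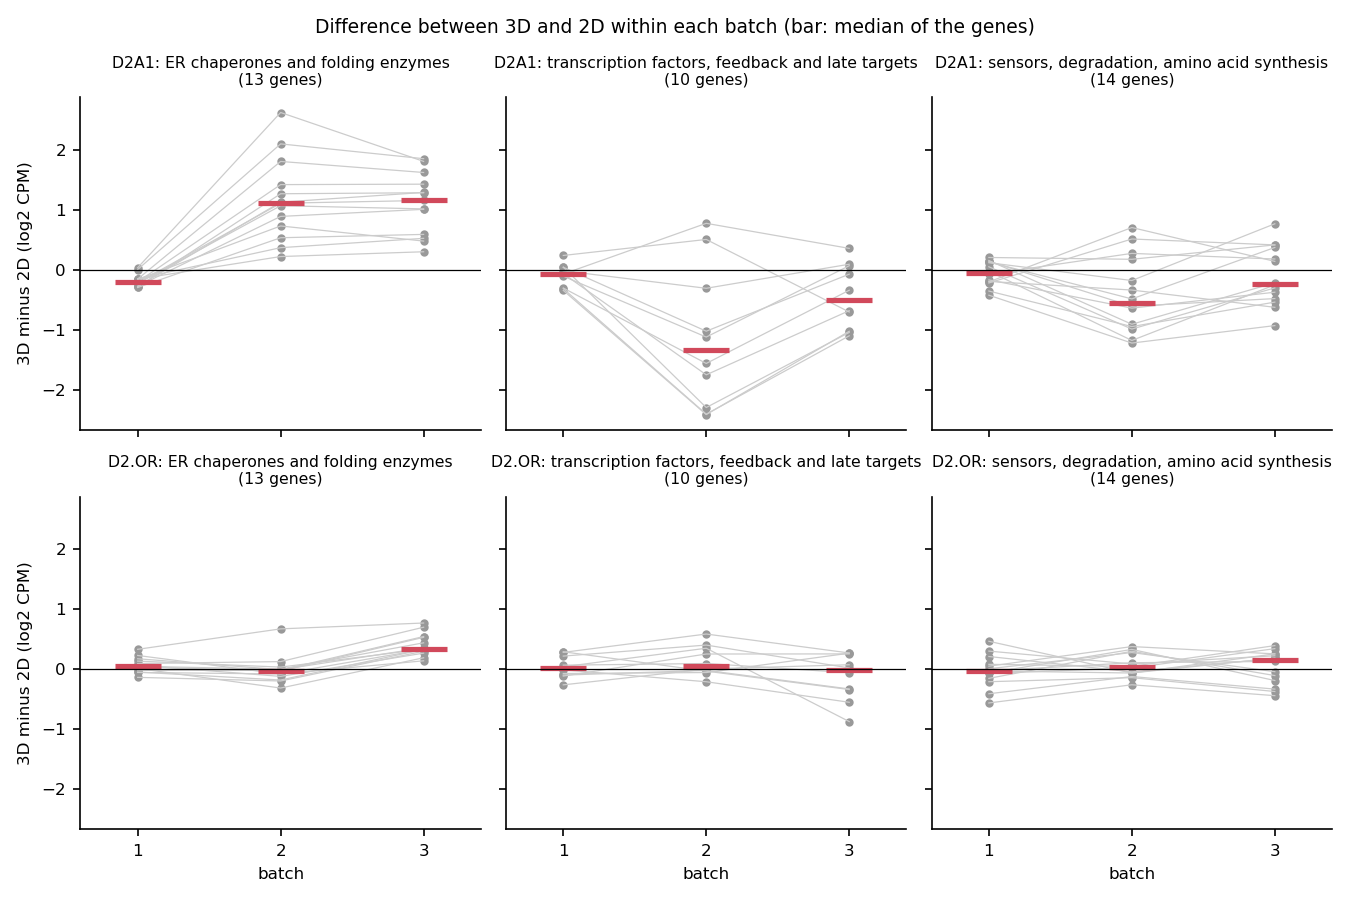
Difference between 3D and 2D in log2 CPM within each batch, for D2A1 (top) and D2.OR (bottom), with members in 3 sets of roles; each point is a gene, thin lines join the same gene, and red bars are medians. In D2A1 the chaperones had a median of -0.20 in batch 1, with 2 of 13 positive, and all lay above 0 in batches 2 and 3 (medians 1.11 and 1.16), while in D2.OR their medians were 0.05, -0.03 and 0.34.

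These counts turned on 1 library. Without D2A1 2D replicate 1, 27 members (73.0%) were called in D2A1, 14 higher and 13 lower in 3D, where 30.3% of all genes were called. The higher ones were 12 of the 13 chaperones and folding enzymes (all but Dnajb9), Syvn1 and Xbp1. Sdf2l1 rose most (log2 fold change 2.15 ± 0.22 (SE), edgeR, adjusted p = 0.000685), followed by Creld2 (log2 fold change 1.93 ± 0.15 (SE), edgeR, adjusted p = 0.000417) and Manf (log2 fold change 1.64 ± 0.15 (SE), edgeR, adjusted p = 0.00056). The lower ones included Ppp1r15a (log2 fold change -1.93 ± 0.34 (SE), edgeR, adjusted p = 0.00513), Ddit3 (log2 fold change -1.90 ± 0.30 (SE), edgeR, adjusted p = 0.00314) and Trib3 (log2 fold change -1.78 ± 0.26 (SE), edgeR, adjusted p = 0.00239). The fall of Ddit3 was -2.40 log2 CPM in batch 2 and -1.10 in batch 3. Without D2A1 2D replicate 2 or without replicate 3 instead, 0 members were called by edgeR, and 9 and 11 had an unadjusted p under 0.05, where 20.3% and 19.3% of all genes did. Without batch 1 as a whole the count was 26, 15 higher and 11 lower, where 36.3% of all genes were called. This library was singled out after the values had been seen, and whether it or the other 2 better represent D2A1 in 2D was not tested.

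The interaction asks whether the change from 2D to 3D differed between the lines, as D2.OR minus D2A1. No member was called by edgeR, and 0.0238% of all genes were called. Without adjustment 6 members had a p under 0.05, Atf6, Ddit3, Herpud1, Sel1l, Atf5 and Dnajb9, all positive, which is no larger a share than the 17.8% of all genes. DESeq2 called Atf6, Ddit3, Herpud1 and Sel1l, and 6.03% of all genes. The smallest adjusted p was that of Atf6 (log2 fold change 0.93 ± 0.20 (SE), edgeR, adjusted p = 0.108). Without D2A1 2D replicate 1, 18 members were called, where 14.5% of all genes were called. The 11 negative ones were all chaperones or folding enzymes, and the 7 positive ones were Atf5, Atf6, Ddit3, Herpud1, Ppp1r15a, Sel1l and Trib3. In D2.OR, where the fit then rested on the same 6 D2.OR libraries, 1 member was called between cultures, Dnajb9, where 3.67% of all genes were called.

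**Figure D5:**
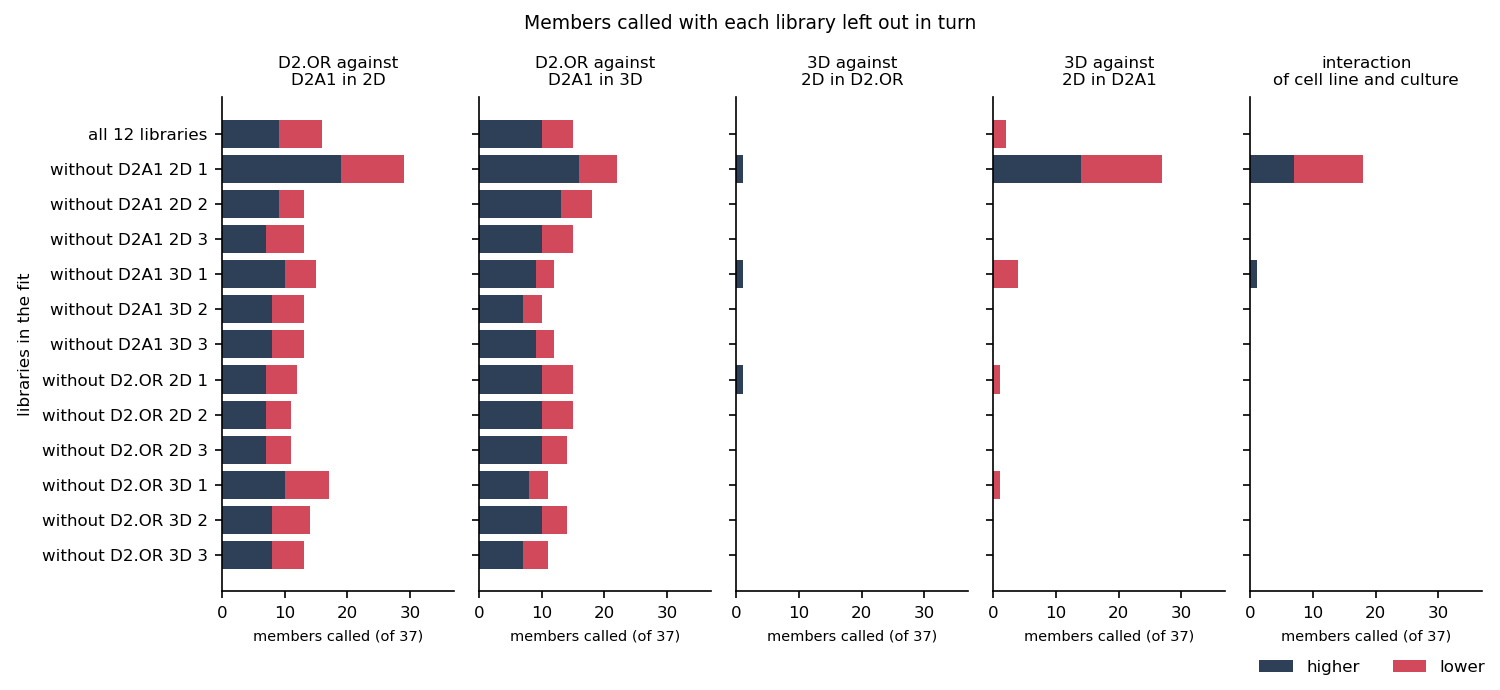
Number of the 37 members called in each of 5 comparisons with all 12 libraries and with each library left out in turn, with higher calls in dark blue and lower calls in red. The count for D2A1 3D against 2D went from 2 to 27 without D2A1 2D replicate 1 and was 0 to 4 without any other single library.

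Genes of the same pathways outside the 37 members were counted from 9 lists with 125 genes, all of which were tested. Of all genes tested, 25.4% were called higher and 24.4% lower in D2.OR in 2D, and 27.7% and 26.1% in 3D, and a list's count near these shares is no result about the list. Among 16 other ER folding genes, 5 were higher and 1 lower in D2.OR in 2D, with 8 of 16 positive and a median log2 fold change of 0.03. The largest positive differences were those of the disulfide isomerases Txndc5 (log2 fold change 1.42 ± 0.15 (SE), edgeR, adjusted p = 7.55e-05) and Pdia3 (log2 fold change 1.0 ± 0.22 (SE), edgeR, adjusted p = 0.00475). Calmegin (Clgn) was near 0 everywhere, at a mean of 0.0833 ± 0.0551 TPM in D2A1 2D and 0.00333 ± 0.00577 in D2.OR 2D (SD, n = 3). In 3D, 2 were higher and 3 lower. Of 15 other degradation genes, 4 were higher and 1 lower in 2D, and 5 were higher and 1 lower in 3D. The lectin Os9, a partner of SEL1L, differed most between the lines in 3D, higher in D2.OR (log2 fold change 1.40 ± 0.11 (SE), edgeR, adjusted p = 1.30e-05).

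Of 20 translocon and secretory pathway genes, 6 were higher and 2 lower in D2.OR in 2D, and 4 were higher and 6 lower in 3D. Leaving out 1 library at a time gave 5 to 13 higher and 0 to 1 lower in 2D, and 4 to 6 higher and 4 to 9 lower in 3D, with 13 higher in 2D (median log2 fold change 0.48, from 0.25) and 9 lower in 3D without D2A1 2D replicate 1. The signal peptidase subunit Spcs3 (log2 fold change 1.70 ± 0.22 (SE), edgeR, adjusted p = 0.000287) and Kdelr3, a receptor that returns ER residents from the Golgi (log2 fold change 1.41 ± 0.23 (SE), edgeR, adjusted p = 0.001), were highest in D2.OR relative to D2A1 in 2D. In 3D the largest negative differences of D2.OR against D2A1 were those of Ssr2 (log2 fold change -0.86 ± 0.15 (SE), edgeR, adjusted p = 0.0013) and Sec61b (log2 fold change -0.79 ± 0.19 (SE), edgeR, adjusted p = 0.00596). Sec61b and Sec61g, small subunits of the translocon, were higher in 3D than in 2D within D2A1, by 0.92 and 0.75 on the log2 scale, and neither was called when any 1 of the 12 libraries other than replicate 1 of D2A1 2D or D2A1 3D was left out.

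The 8 other ER stress transducers and proteases held the largest line difference of the lists. Creb3l1 (OASIS), a membrane factor cut like ATF6, was at 48.9 ± 8.54 TPM in D2.OR 2D and 1.41 ± 0.356 in D2A1 2D, and at 38.5 ± 4.07 and 0.507 ± 0.176 in 3D (SD, n = 3). It was called in 2D (log2 fold change 5.25 ± 0.29 (SE), edgeR, adjusted p = 1.67e-06) and in 3D (log2 fold change 6.21 ± 0.31 (SE), edgeR, adjusted p = 9.54e-07), and it fell in D2A1 from 2D to 3D (log2 fold change -1.35 ± 0.28 (SE), edgeR, adjusted p = 0.0445). Mbtps2, a protease that cuts ATF6 and CREB3L1 in the membrane, went the other way in 2D (log2 fold change -1.16 ± 0.10 (SE), edgeR, adjusted p = 1.87e-05) and in 3D (log2 fold change -1.27 ± 0.10 (SE), edgeR, adjusted p = 1.07e-05). In all, 3 of the 8 were higher and 2 lower in 2D, and 4 and 2 in 3D.

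Of 12 genes for eIF2 alpha kinases and eIF2 or eIF2B subunits, 1 was higher and 3 lower in D2.OR in 2D, and 1 and 6 in 3D. Impact, an inhibitor of GCN2 activation, was lower in D2.OR in 2D (log2 fold change -1.71 ± 0.12 (SE), edgeR, adjusted p = 8.77e-06) and in 3D (log2 fold change -1.33 ± 0.12 (SE), edgeR, adjusted p = 3.20e-05). It was also the 1 gene of the 9 lists called between cultures in D2.OR, where it rose in 3D (log2 fold change 0.67 ± 0.12 (SE), edgeR, adjusted p = 0.0364). Of 18 other ATF4 targets, 2 were higher and 6 lower in 2D, and 2 and 4 in 3D. The 6 became 9 without D2A1 2D replicate 1 (median log2 fold change -0.55, from -0.37), 3 without D2A1 2D replicate 2 (median -0.16), and 3 and 2 when replicates 3 and 2 of D2.OR 2D were left out in turn. In 3D the 4 became 1 or 2 without any 1 library of either 3D group, and 4 were higher without D2A1 2D replicate 1. The higher ones in both cultures were Cbs, an enzyme of cysteine synthesis, and the stress cytokine Gdf15, which was at 6.73 ± 1.96 TPM in D2.OR 2D and 1.33 ± 0.980 in D2A1 2D (SD, n = 3). Fgf21, a hormone induced by ATF4, and Cth, which follows Cbs in cysteine synthesis, were lower in D2.OR, with log2 fold changes of -2.85 and -1.24 in 2D.

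The aminoacyl-tRNA synthetases charge tRNAs with amino acids, and many are ATF4 targets. Of 12, none was higher and 6 were lower in D2.OR in 2D, with Sars (log2 fold change -0.99 ± 0.20 (SE), edgeR, adjusted p = 0.00292) and Lars (log2 fold change -0.80 ± 0.23 (SE), edgeR, adjusted p = 0.0167) the lowest, and 1 was higher and 2 lower in 3D. Of 13 cytosolic heat shock genes, 4 were higher and 3 lower in 2D, and 5 and 7 in 3D. The small heat shock gene Hspb1 was higher in D2.OR in both cultures, by 2.46 and 2.43, with a mean of 441 ± 383 TPM in D2.OR 2D and 73.4 ± 38.7 in D2A1 2D (SD, n = 3).

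Of 11 mitochondrial chaperones and proteases, 9 were lower in D2.OR in 2D and 8 in 3D, and none was higher, against 24.4% and 26.1% of all genes called lower. The chaperonin Hspd1 was at 483 ± 117 TPM in D2A1 2D and 249 ± 26.8 in D2.OR 2D, and at 605 ± 70.5 and 307 ± 47.2 in 3D (SD, n = 3). It was called in 2D (log2 fold change -0.83 ± 0.20 (SE), edgeR, adjusted p = 0.00853) and in 3D (log2 fold change -1.0 ± 0.21 (SE), edgeR, adjusted p = 0.00309). Trap1, the mitochondrial HSP90, had the most negative difference of D2.OR against D2A1 in 2D (log2 fold change -0.98 ± 0.15 (SE), edgeR, adjusted p = 0.000602). No gene of the list was called between cultures in either line. The count of 8 lower in 3D was 5 without D2A1 3D replicate 3 or without replicate 1 or 3 of D2.OR 3D.

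Other lists also moved between the lines when 1 library was left out. Without D2A1 2D replicate 1, the share of all genes called went from 49.8% to 51.2% in 2D and from 53.8% to 59.5% in 3D. The share in the other fits is not given here. Counts of these lists and those above with 1 library left out are therefore no result about the lists alone. In 2D, the 4 degradation genes called higher became 1 without D2A1 2D replicate 3 and 2 when replicate 2 of D2.OR 2D was left out, and the 3 lower genes of the eIF2 list became 5 without D2A1 2D replicate 3. The 6 synthetases lower in 2D ranged from 4 to 9, with 9 without D2A1 2D replicate 1, and the 2 lower in 3D became 4 without D2A1 2D replicate 2. The 4 heat shock genes higher in 2D became 7 without D2A1 2D replicate 1, and the 3 lower became 1 without replicate 1 or 2 of D2.OR 2D. In 3D the heat shock counts ranged from 2 to 5 higher and from 3 to 7 lower, falling when libraries of either 3D group were left out. The 2 ER folding genes higher in 3D became 4 without D2A1 2D replicate 1.

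Lists outside the members also varied between the D2A1 2D libraries. The median of the 18 other ATF4 targets stood 0.80 log2 units above the gene means in replicate 2, at 0.24 in replicate 3 and at -0.08 in replicate 1, and that of the 12 synthetases at 0.75, 0.27 and -0.09. The translocon list was lowest in replicates 2 and 3, at -0.32 and -0.37, and at -0.03 in replicate 1. In the D2A1 3D and D2.OR libraries the medians of these lists lay between -0.33 and 0.30. Without D2A1 2D replicate 1, 14 of the 20 translocon genes were called higher and 1 lower in D2A1 3D than in 2D, where 2 and 0 had been called with it. In that fit 30.3% of all genes were called. Under the same omission, 10 of the 18 other ATF4 targets and 8 of the 12 synthetases were called lower in D2A1 3D, and none higher. The other ER folding genes then had 8 of 16 higher and 2 lower in D2A1 3D, the cytosolic heat shock genes 6 of 13 higher and none lower, and the eIF2 list 5 of 12 higher and 2 lower. The other degradation genes had 5 of 15 higher and 3 lower, the transducers and proteases 0 of 8 higher and 3 lower, and the mitochondrial genes 2 of 11 higher and 1 lower. Without D2A1 3D replicate 1 instead, 8 translocon and 4 ER folding genes were called higher in D2A1 3D. The share of all genes called in that fit is not given here, so these last counts are no result about the lists alone.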

How the data were processed

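RNA-seq was available for 12 libraries, 3 in each of 4 groups, with library totals of 47589611 to 73325069. The authors trimmed reads with Trimmomatic 0.32, checked them with FastQC 0.11.4, aligned them to GRCm38 with STAR 2.5.3 and quantified genes with RSEM 1.3.0. They deposited an expected count, a TPM and an FPKM value for each gene and library, and FPKM was not used here. TPM are the values of the deposited series table, and the deposited expected counts were rounded to whole numbers, which altered 10.7% to 11.8% of the values in a library.

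Counts were scaled by TMM and tested with edgeR 4.0.16 (R 4.3.3) by its quasi-likelihood test after filterByExpr, with the 4 groups and the batch as terms, over 16823 genes. The study's own model was a DESeq2 likelihood-ratio test with batch and interaction terms. The common biological coefficient of variation was 21.2%. P-values were Benjamini-Hochberg adjusted over all genes tested, the threshold was 0.05 and the prior count was 2. DESeq2 1.42.0 and limma 3.58.1 were alternatives, the latter on log2(TPM + 1) and log2(TPM + 0.1), and the fits were tested on simulated data. Other alternatives were DESeq2 size factors, library totals alone, no filter, at least 10 counts in every library, no batch term, a fit on only the 6 libraries compared, and leaving out each library and each batch in turn.

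Replicate numbers pair the libraries, since the labels give a batch with the number. Deviations from the group means correlated at 0.0758 to 0.511 (median 0.267) over 18 pairs with the same number, and at a median of -0.195 for different numbers, so the batch was kept as a term.

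The members and lists were chosen with earlier results of these data known. All 37 members were named. Values in every library were given for the sensors, for up to 3 called members of each role with the smallest p between the lines, and for called members between cultures. Of each further list, up to 2 rises and 2 falls were named. Values of Hspa5, Calr, Sdf2l1, Creld2, Manf, Atf4, Atf5, Xbp1, Trib3, Ppp1r15a and Asns in every library were added after they had been seen. Promoter sequences were RefSeq's on GRCm38.p6 and were matched by symbol.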

Additional observations from a re-analysis of the deposited data

Results flagged for a closer look

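Ddit3 and Atf5 were the members whose change from 2D to 3D went one way in every batch of one line and the opposite way in every batch of the other. The share of all genes with this sign pattern was not counted, so the pattern alone is no result about these members. Ddit3 was higher in 3D by 0.28, 0.59 and 0.27 log2 CPM in D2.OR and differed by -0.31, -2.40 and -1.10 in D2A1 (batches 1, 2 and 3). The difference between the lines in that change was 1.79 ± 0.58 on the log2 scale (SE) and did not pass the threshold (edgeR, adjusted p = 0.18), though DESeq2 called it. Atf5 was higher in 3D by 0.22, 0.41 and 0.03 log2 CPM in D2.OR and differed by -0.06, -1.75 and -0.68 in D2A1. Its difference was 1.09 ± 0.39 (SE) and did not pass either (edgeR, adjusted p = 0.206). Both were called without D2A1 2D replicate 1, at 2.27 for Ddit3 and 1.41 for Atf5, where 14.5% of all genes were called. That library was singled out after the values had been seen and was the lowest of D2A1 2D for both genes. Larger differences without it followed from the choice, so these calls are no further support.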

How the results depend on the processing

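No call of a member turned direction under any of the 24 alternatives. The calls of Atf6, Dnajc3, Edem1, Mthfd2, Nupr1, Phgdh and Sel1l in 2D, and of Dnajb9, Dnajc3, Edem1, Herpud1, Mthfd2, Nupr1, Phgdh and Sel1l in 3D, were kept in all of them. Between the lines, DESeq2 called 21 members in 2D and 16 in 3D. Leaving out a library or a batch gave 7 to 29 members in 2D and 9 to 22 in 3D, with the lowest counts without batch 2 (2D) and without batch 3 (3D) and the highest without D2A1 2D replicate 1. In the fit without that library, 51.2% of all genes were called in 2D and 59.5% in 3D, where the 22 members were also 59.5%. The share of all genes called changed with the fit, so a changed count alone is no result about the members. In D2.OR between cultures, DESeq2 called 2 members, and library totals alone, the 6 libraries compared and limma with either pseudocount called 1 each (Dnajb9), while leaving out libraries gave 0 to 1. In D2A1 between cultures, the count of 2 became 13 with DESeq2, 1 with library totals alone, 0 with the 6 libraries compared by edgeR (12 at an unadjusted p under 0.05), and 0 to 27 when libraries were left out. It was 0 without replicate 2 or 3 of any group, 1 without D2.OR 2D or D2.OR 3D replicate 1, 4 without D2A1 3D replicate 1 and 27 without D2A1 2D replicate 1. Of all genes, 30.3% were called in the fit without D2A1 2D replicate 1. For the interaction DESeq2 called 4 members, and leaving out libraries gave 0 to 18. At the count of 18, 14.5% of all genes were called. The replicate block is a term of the reported model, and without it the pairing was ignored and the counts were 13 and 14 between the lines, 0 and 1 between cultures and 0 for the interaction. All 37 members passed the filter on low counts, and the least abundant, Ern1, averaged 12.2 TPM.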

Other observations

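The promoter elements and the spread of the D2A1 2D libraries were set side by side after the values had been seen, as a description. All 8 members with an ERSE were highest in replicate 1 of that group, and all 5 members with a CARE were highest in replicate 2. Some members without these elements were too, since 17 of the 37 were highest in replicate 1 (among them Sdf2l1 and Pdia4, with no ERSE) and 18 in replicate 2 (among them Ddit3, Atf4, Atf5 and Ppp1r15a, with no CARE). Of 11 other tested genes with an ERSE in their window, 7 (63.6%) were highest in replicate 1, and over all 11162 tested genes with a window 43.5% were. The largest excesses in replicate 1 among these 11, both at low levels, were those of Derl3 and Calr4. Derl3, a degradation gene, was at 4.97, 0.37 and 1.37 TPM in replicates 1, 2 and 3, and Calr4, a calreticulin paralog, at 1.70, 0.18 and 0.20 TPM. Pan2, Ptgdr2 and Acacb went the other way, at -0.52, -0.26 and -0.18 log2 CPM in replicate 1 from the mean of the other libraries. Of 314 other tested genes with a CARE, 103 (32.8%) were highest in replicate 2, beside 29.2% of all tested genes with a window.

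Cytosolic heat shock genes also varied within D2A1 2D. Their median stood at 0.11, -0.61 and -0.10 log2 CPM from the gene means in replicates 1, 2 and 3, and in the other 9 libraries it lay between -0.24 and 0.28.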
